A study of Mus musculus with 7 samples.

Results

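The 7 libraries of this series were split by the share of their counts that came from S100a8 and S100a9, the transcripts of the 2 calprotectin subunits. Of the 7, 3 libraries had a share of at least 1% and are called S100-high here: wild type 1 (WT 1), knockout 1 (KO 1) and knockout 2 (KO 2). The other 4 were under 1% and are called S100-low: WT 2, WT 3, WT 4 and KO 3. The split ignores genotype, and S100a8 and S100a9 themselves were left out of every comparison between the sides. The members were thus chosen by measured values, the libraries' own S100a8 and S100a9 counts. Since the sides were made from these libraries' own counts, differences between them are descriptions and no test of them is given.

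RNA came from mouse granulocytes and was sequenced as QuantSeq tags, which lie near the 3′ end of polyadenylated transcripts. The genotypes were wild type (n = 4) and knockout (n = 3) for Alox15, which encodes arachidonate 15-lipoxygenase, and every library was labelled untreated. The sources used here do not give the organ of origin, any sort or gate, the age and strain of the animals, or which part of Alox15 was deleted. Whether the replicates were separate animals is not stated either, so p-values between genotypes measure only the spread between these libraries.

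Neutrophils are short-lived phagocytes made in the bone marrow. While they mature they fill successive sets of granules: primary granules with elastase-like proteases, secondary granules with lactoferrin and lipocalin 2, then gelatinase granules with matrix metalloproteinases. S100A8 and S100A9 bind calcium and zinc, pair as calprotectin and are among the most plentiful proteins of the neutrophil cytosol, and monocytes make them too. In bulk RNA, fewer cells of a type and less RNA per cell cannot be told apart.

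Total counts ran from 3228292 to 5657192 per library, with 14657 to 15560 genes detected, and the labels name no molecular identifiers, so intervals cover counting error only. Alox15 (chr11:70344152-70352031, minus strand, GRCm38) had 1 count in KO 1 and none in the other 6 libraries, wild type included, so it checks no label. The stem of the sample description differed for KO 2 and KO 3, and these were also the libraries with Xist at 382 and 102 CPM (counts scaled to a common library size), against 0.896 to 6.11 CPM elsewhere. The Y-linked Ddx3y was at 0.306 and 0.195 CPM in KO 2 and KO 3 against 19.3 to 119 CPM elsewhere, and Eif2s3y had no counts in KO 2 and KO 3. Each side held 1 of these libraries, but both were knockouts, so this difference lies partly along genotype.

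The rule's own values were as follows. The S100a8 and S100a9 share was 2.05% of counts in WT 1 (Wilson 95% interval 2.04 to 2.06), 1.91% in KO 1 (1.90 to 1.92) and 1.12% in KO 2 (1.11 to 1.14). On the other side it was 0.989% in WT 4 (0.979 to 0.999), 0.921% in WT 3 (0.912 to 0.929), 0.234% in WT 2 (0.231 to 0.238) and 0.165% in KO 3 (0.162 to 0.169). The threshold therefore fell between KO 2 and WT 4, which lay much closer to each other than WT 3 did to WT 2.

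**Figure D1:**
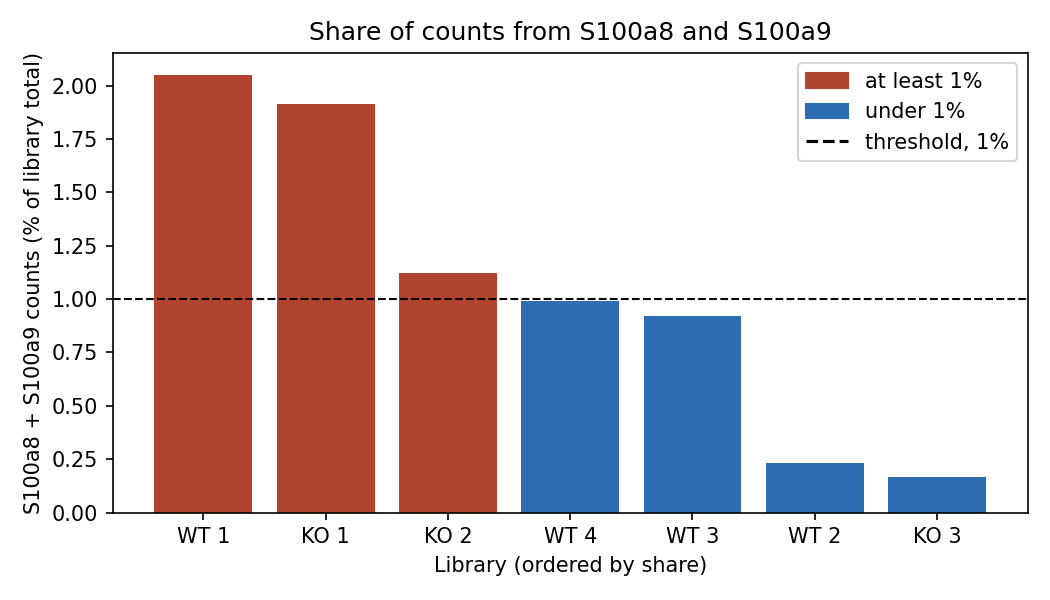
Share of each library's counts from S100a8 and S100a9, in percent of the library total, with libraries ordered by share and the 1% threshold dashed. WT 4 (0.989%) and WT 3 (0.921%) sit just under the line, and WT 2 (0.234%) and KO 3 (0.165%) far under it.

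The place of WT 3 and WT 4 depended on the denominator. Cytosolic ribosomal protein genes took 7.55%, 9.70% and 10.4% of counts in WT 1, KO 1 and KO 2, and 13.7% to 21.5% in the S100-low libraries. Outside those genes the S100 share was 1.07% in WT 3 and 1.18% in WT 4, so that 5 of 7 libraries would have been S100-high. A name such as neutrophil-poor was not used for these 2 libraries, because their side depended on the denominator and the markers differed. Cxcr2, the chemokine receptor of mature neutrophils, stood at 686 CPM in WT 4, above the 461 CPM of KO 1. In WT 3 it was at 382 CPM, below every S100-high library. Of the other preset neutrophil markers outside the rule, Csf3r also overlapped, and the rest put both libraries below every S100-high one. The sides are therefore called by the rule.

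The 2 genes of the rule lie near each other on chromosome 3, S100a8 at chr3:90668978-90670035 on the plus strand and S100a9 at chr3:90692632-90695721 on the minus strand. S100a8 was at 10487, 7695 and 4385 CPM in WT 1, KO 1 and KO 2, and at 6714, 4072, 970.3 and 986 CPM in WT 4, WT 3, WT 2 and KO 3. WT 4 thus overlapped the S100-high side for S100a8. S100a9 was at 11610, 11820 and 6726 CPM on the S100-high side and at 3519, 5038, 1107 and 735 CPM in WT 4, WT 3, WT 2 and KO 3, with no overlap. Other S100 genes followed less sharply: 6 of 13 passed the expression filter (edgeR's filterByExpr, which asks for a minimum count in at least 3 libraries), and none was apart, that is, beyond the other side in every library. S100a6 ranged from 825 to 1181 CPM against 309 to 882 CPM, and S100a11 from 256 to 683 CPM against 36.0 to 436 CPM.

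The share was also compared between genotypes. Wild types averaged 1.05% ± 0.75 (SD, n = 4) and knockouts 1.07% ± 0.875 (SD, n = 3). The difference in mean log2 share, knockout minus wild type, was -0.20, smaller than the spread between libraries of either genotype. It is given as a description, because the share is the value that made the sides.

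Across the 12504 other genes that passed the filter, a gene is called apart when every library of one side lay beyond every library of the other, and counted as higher or lower when it was apart and its mean log2 CPM also differed by at least 1. By that rule 1015 genes (8.12%) were higher on the S100-high side and 453 (3.62%) were lower, 11.7% in all. Genes that were apart at any size made up 21.3%, with 1557 above (12.5%) and 1106 below (8.85%). The median difference over all genes was -0.01. Without both WT 3 and WT 4 the counts were 2222 higher and 1021 lower. Without KO 2 they were 1631 and 944. A gene could pass the filter through the 3 S100-high libraries alone and would then have to be higher there. Another could pass through S100-low libraries alone and would then tend to be lower on the S100-high side. The counts over gene lists below therefore describe the members that passed and support nothing by themselves.

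Transcripts of secondary granule proteins were the list with the largest median difference, 2.68 on the log2 scale. On the S100-high side 10 of its 12 tested members were higher (83.3%, against 8.12% of all tested genes). The thirteenth member, Olfm4, was below the filter. Ltf encodes lactoferrin, the iron-binding protein of secondary granules. Ltf (chr9:111019271-111042767, plus strand) was at 280.0, 222 and 299.9 CPM in WT 1, KO 1 and KO 2, and at 23.0, 17.5, 11.7 and 4.67 CPM in WT 4, WT 3, WT 2 and KO 3. Every S100-high library thus lay far above every S100-low one, with means of 267 ± 40.2 CPM (SD, n = 3) and 14.2 ± 7.86 CPM (SD, n = 4) and a log2 difference of 4.38. The difference was also present inside each genotype: WT 1 exceeded the mean of the other wild types by 4.02, and KO 1 and KO 2 exceeded KO 3 by 5.66.

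Ngp, neutrophilic granule protein, lies on the same chromosome at chr9:110419747-110423012. Its values were 387, 269 and 323 CPM against 47.9, 51.4, 22.7 and 8.96 CPM in WT 4, WT 3, WT 2 and KO 3, a log2 difference of 3.57. Lcn2 encodes lipocalin 2, which binds bacterial siderophores. It was at 340.0, 271 and 261 CPM on the S100-high side and at 59.3, 78.5, 25.8 and 30.8 CPM in WT 4, WT 3, WT 2 and KO 3. For Ltf, Ngp and Lcn2 alike, the S100-high libraries lay within a narrow band and WT 3 and WT 4 between that band and the lowest pair.

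Chil3, a chitinase-like protein of secondary granules and of some macrophages, was at 40.9, 32.5 and 93.1 CPM against 4.77, 3.58, 1.10 and 13.05 CPM in WT 4, WT 3, WT 2 and KO 3, and the log2 difference was 3.46. Ly6g, the surface antigen used to define mouse neutrophils, was at 64.5, 66.7 and 52.7 CPM against 10.9, 10.5, 3.45 and 4.09 CPM. Camp, which encodes the antimicrobial cathelicidin, was at 67.5, 31.9 and 54.5 CPM against 31.8, 11.5, 1.72 and 3.12 CPM. Camp was apart only narrowly, since KO 1 and WT 4 had nearly the same value. Cd177, Cybb, Hp and Itgam were also higher, by 2.58, 2.65, 2.20 and 2.34. Chil1 (1.81) and Cyba (0.40) overlapped between the sides.

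The promoters of the 3 secondary granule genes with the largest differences are shown to set the genes beside the letters of a C/EBP-type site, since C/EBP epsilon is the factor known to be needed for these granules. Each line holds the 250 bases before the RefSeq transcription start on GRCm38.p6, in the direction of the gene, and capitals mark matches to TTNNGNAA on either strand, none of which overlap here. Ltf is at chr9:111019042-111019291 (plus strand), Ngp at chr9:110419558-110419807 (plus strand) and Chil3 at chr3:106167565-106167814 (minus strand).
Ltf: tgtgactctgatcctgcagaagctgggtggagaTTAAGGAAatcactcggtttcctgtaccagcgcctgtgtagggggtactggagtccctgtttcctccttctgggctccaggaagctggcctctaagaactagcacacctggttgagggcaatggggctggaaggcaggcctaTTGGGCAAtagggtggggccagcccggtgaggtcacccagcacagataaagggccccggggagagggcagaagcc
Ngp: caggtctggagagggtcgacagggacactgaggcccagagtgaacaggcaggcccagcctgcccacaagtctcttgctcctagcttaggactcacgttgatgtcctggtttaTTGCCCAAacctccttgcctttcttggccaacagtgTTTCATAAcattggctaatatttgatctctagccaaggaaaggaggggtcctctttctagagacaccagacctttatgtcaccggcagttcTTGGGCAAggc
Chil3: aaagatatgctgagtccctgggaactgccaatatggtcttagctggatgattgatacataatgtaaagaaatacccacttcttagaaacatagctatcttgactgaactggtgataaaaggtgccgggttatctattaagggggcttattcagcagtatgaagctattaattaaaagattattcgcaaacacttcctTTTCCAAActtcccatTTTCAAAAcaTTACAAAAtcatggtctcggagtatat
Ltf held 2 matches, Ngp 3 and Chil3 3. The same letters were found in 9969 of 27025 RefSeq mouse promoters of that length (36.9%), so a match is a description and no more. The windows of Camp and Cybb held no match, those of Lcn2, Cd177 and Itgam 1 each, and those before 2 starts of Ly6g 2 and 1. The window of S100a8 held 1 match and that of S100a9 held 2. The transcript of C/EBP epsilon itself, Cebpe, was below the filter.

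Genes of primary granules, which neutrophils make earlier in the marrow, overlapped between the sides. Elane and Ms4a3 had no counts in any library, and the list as a whole took 0.00288% to 0.00437% of counts on the S100-high side and 0.00349% to 0.00851% on the other. Of its 8 members 2 passed the filter, and both overlapped: Prss57 at 28.7 to 38.3 CPM against 27.8 to 80.6 CPM, and Cst7 at 1.49 to 7.97 CPM against 5.76 to 13.2 CPM.

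Gelatinase granule and late maturation genes had all 16 members tested, with a median difference of 2.22. Of these, 9 were higher on the S100-high side (56.25%, against 8.12% of all tested genes) and none was lower. Mmp8 encodes neutrophil collagenase. It was at 132, 139 and 148 CPM in WT 1, KO 1 and KO 2, and at 35.2, 53.0, 21.8 and 15.0 CPM in WT 4, WT 3, WT 2 and KO 3. Mmp9, gelatinase B, was at 896, 695 and 1037 CPM against 279, 528, 142 and 65.8 CPM. WT 3 came nearest to the S100-high libraries for both metalloproteinases. Retnlg, a resistin-like protein of neutrophils, was at 470.3, 482 and 373 CPM against 216, 151, 39.8 and 52.4 CPM. Lyz2 (lysozyme, shared with macrophages) overlapped, with 712 CPM in WT 4 against 451 CPM in KO 2.

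The widest gaps in that list were those of Stfa2 and BC100530 from the stefin A cluster. Stfa2 was at 202, 71.9 and 97.1 CPM against 1.59, 1.99, 1.57 and 21.8 CPM in WT 4, WT 3, WT 2 and KO 3, and BC100530 at 542, 167 and 267 CPM against 10.1, 6.75, 1.10 and 84.1 CPM. For these 2 genes KO 3 was the S100-low library nearest to the other side. Other members of the cluster went differently: Stfa2l1 was also higher (2.42), with KO 3 at 15.4 CPM under WT 4 at 38.7 and WT 3 at 37.1 CPM, and Stfa1 overlapped, with 1.79 CPM in WT 1 and 14.03 CPM in WT 4. Stefin A genes are near-identical copies, and no source used here says how reads matching several of them were counted, so single members are uncertain.

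**Figure D2:**
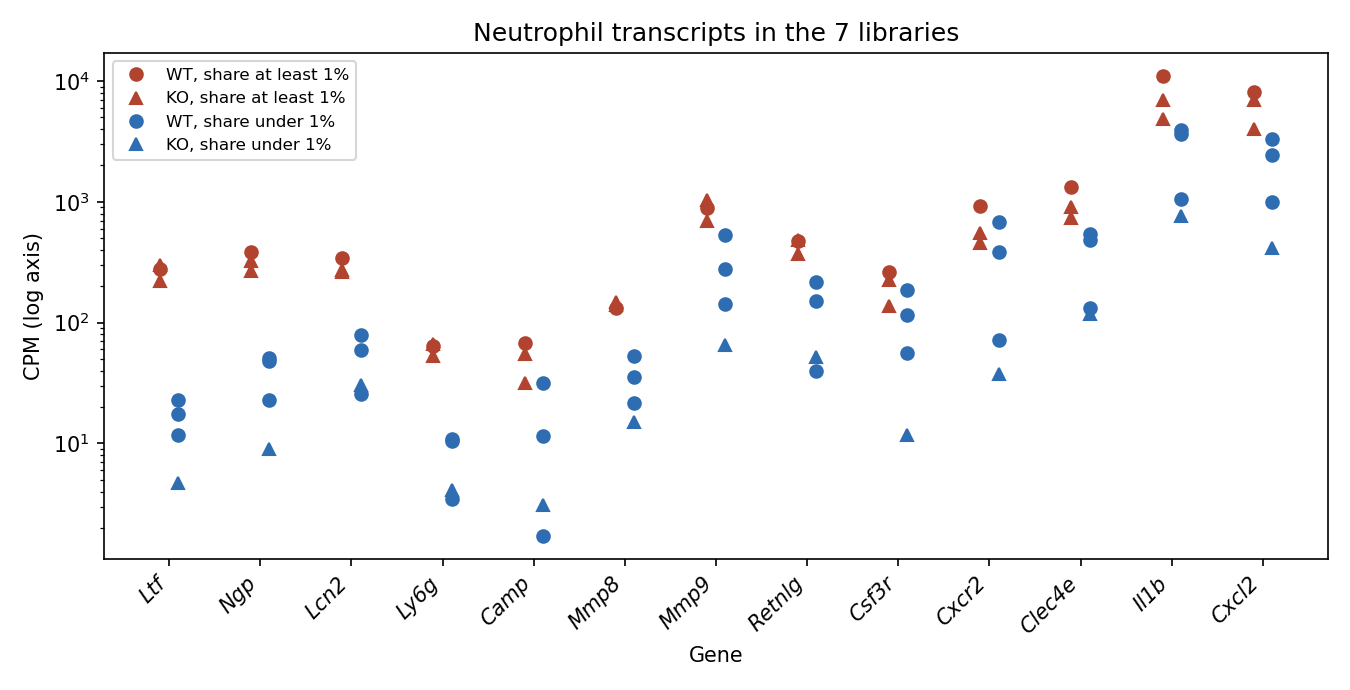
CPM on a log axis for 13 neutrophil transcripts, with 1 point per library, colour for the side and shape for the genotype. Granule genes such as Ltf (222 to 299.9 against 4.67 to 23.0 CPM) separate fully, while Cxcr2 (461 to 923 against 37.8 to 686 CPM) and Csf3r (138 to 261 against 11.7 to 186 CPM) overlap.

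Neutrophil receptors and regulators split the S100-low side differently. All 37 were tested and 37 had a positive difference, with a median of 1.95. Yet 17 were counted as higher (45.95%, against 8.12% of all tested genes). Cxcr2 was at 923, 461 and 552 CPM in WT 1, KO 1 and KO 2, and at 686, 382, 71.7 and 37.8 CPM in WT 4, WT 3, WT 2 and KO 3. Csf3r, the receptor for the growth factor G-CSF, was at 261, 228 and 138 CPM against 115, 186, 56.1 and 11.7 CPM. In both genes a wild type of the S100-low side lay above a knockout of the S100-high side, while WT 2 and KO 3 lay below all others. C5ar1, the complement C5a receptor, overlapped through WT 3 alone (130.3 CPM against 122 CPM in KO 2).

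Counted over the list, WT 3 reached or passed the lowest S100-high library in 11 of 37 receptor genes and WT 4 in 13, against 1 in WT 2 and 0 in KO 3. Over all tested genes the shares that did so were 73.2% for WT 3, 69.4% for WT 4, 67.6% for WT 2 and 65.7% for KO 3. For secondary granule genes WT 3 did so in 1 of 12, WT 4 in 1, and WT 2 and KO 3 in 0. KO 3 was the lowest library for 25 of the 37 receptor genes and WT 2 for 12, and WT 1 was the highest for 30. Among all 12504 tested genes KO 3 was the lowest for 2454 and WT 2 for 1579, and WT 1 was the highest for 2518. As a mean log2(CPM + 1) over the list, receptors stood at 8.09, 7.71 and 7.19 in WT 1, KO 1 and KO 2, at 6.80 and 6.79 in WT 3 and WT 4, and at 4.96 and 4.57 in WT 2 and KO 3. Secondary granule genes stood at 7.16, 6.87 and 6.99, then 5.11 and 5.22, then 3.55 and 3.76 in the same libraries. WT 3 and WT 4 were thus nearer to KO 2 on the receptor score, and about midway between the sides' extremes on the granule score.

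**Figure D3:**
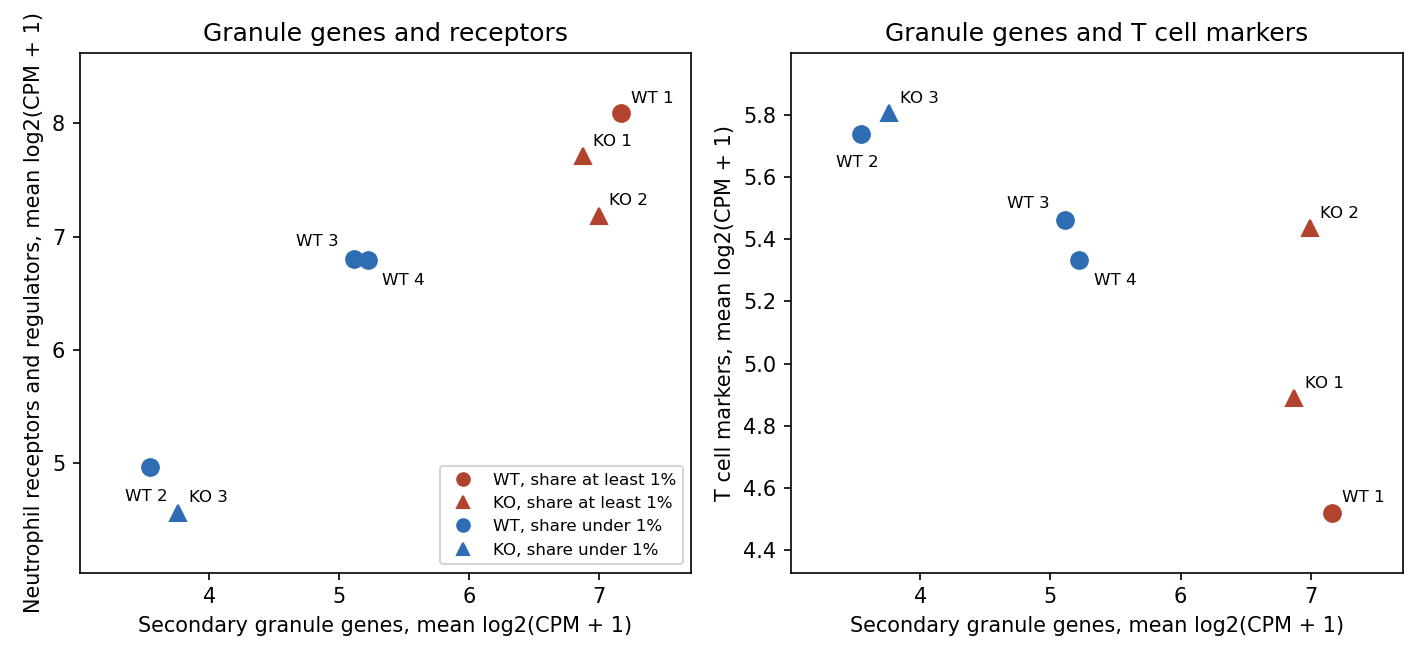
Mean log2(CPM + 1) of the 12 tested secondary granule genes (x axis) against that of the 37 receptors and regulators (left) and the 22 tested T cell markers (right), with 1 point per library. WT 3 (5.11) and WT 4 (5.22) stand apart from the S100-high libraries (6.87 to 7.16) along x, and close to KO 2 in height on the left (6.80 and 6.79 against 7.19).

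Among the receptors that were apart, Fpr2, which senses formylated peptides, was at 331, 228 and 345 CPM against 78.1, 133, 37.7 and 22.0 CPM in WT 4, WT 3, WT 2 and KO 3. Il1r2, the decoy receptor for interleukin 1, was at 1004, 768 and 638 CPM against 229.5, 409, 90.2 and 49.1 CPM. Fcgr4, an activating receptor for immunoglobulin G, was at 203, 164 and 183 CPM against 65.7, 80.2, 17.1 and 8.18 CPM. These 3 genes shared an order on the S100-low side, with WT 3 highest and KO 3 lowest. Clec4e (1.92), Hdc (2.40), Mxd1 (2.27) and Trem1 (2.05) were also higher.

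The phagocyte NADPH oxidase makes superoxide in the phagosome. Cybb, the catalytic subunit, was at 134, 183 and 164 CPM in WT 1, KO 1 and KO 2, and at 27.3, 73.7, 12.5 and 15.2 CPM in WT 4, WT 3, WT 2 and KO 3. Ncf4, a cytosolic subunit, was also higher on the S100-high side, by 1.90. Ncf1 overlapped (137 CPM in KO 1 against 156 CPM in WT 3), as did Rac2 and Cyba, the membrane partner of Cybb, which was at 168 to 176 CPM against 103 to 191 CPM. Cybb and Cyba are also counted in the secondary granule list.

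Of 13 myeloid transcription factors tested, 3 (Bcl6, Fosl2 and Klf2) were higher on the S100-high side. That is 23.1%, against 8.12% of all tested genes. Spi1, which encodes PU.1, was at 452, 295 and 219.9 CPM in WT 1, KO 1 and KO 2, and at 241, 147, 36.5 and 50.4 CPM in WT 4, WT 3, WT 2 and KO 3. Gfi1, a repressor active in granulocyte precursors, had a negative difference of -0.79, with 13.1, 13.6 and 29.7 CPM against 20.4, 35.2, 34.8 and 34.7 CPM.

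Of 24 tested cytokines, chemokines and related genes, 12 were higher on the S100-high side (median 1.60) and 12 overlapped, and Il6 was below the filter. The higher ones made up 50.0%, against 8.12% of all tested genes. Among those that overlapped, the chemokine Ccl6 was at 741 CPM in WT 4 against 469 CPM in WT 1, and Tgfb1 differed by 0.10. Il1b encodes the pro-inflammatory cytokine interleukin 1 beta. It was at 11012, 7013 and 4872 CPM in WT 1, KO 1 and KO 2, and at 3927, 3628, 1060 and 768 CPM in WT 4, WT 3, WT 2 and KO 3. Cxcl2, a ligand of CXCR2, was at 8172, 6907 and 3972 CPM against 2440, 3344, 996 and 419 CPM. WT 3 and WT 4 were the nearest below KO 2 for Il1b and for Cxcl2. Arg1, an arginase of suppressive myeloid cells, overlapped, with 18.5 CPM in WT 1 and 92.7 CPM in KO 1, whereas its mitochondrial relative Arg2 did not (86.1 to 141 CPM against 4.87 to 54.6 CPM).

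NF-kB targets had 12 of 24 members higher (50.0%, against 8.12% of all tested genes) and none lower, with a median of 1.74. Nfkbia, the inhibitor that NF-kB itself induces, was at 11740, 7923 and 6766 CPM in WT 1, KO 1 and KO 2, and at 3870, 5022, 1041 and 988 CPM in WT 4, WT 3, WT 2 and KO 3. Ier3, an early stress-response gene, ranged from 1042 to 2752 CPM against 139 to 809.9 CPM. Tnfaip2 overlapped (1736 CPM in KO 2 against 1816 CPM in WT 4). Ccrl2 is counted both here and with the cytokines and chemokines.

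Of 36 interferon-stimulated genes listed, 32 were tested and 28 of these had a positive difference, with a median of 1.38 over the 32. In the list, 10 were higher on the S100-high side (31.25%, against 8.12% of all tested genes). Bst2 alone was lower (3.125%, against 3.62% of all tested genes). Rsad2, the antiviral enzyme viperin, was at 213, 231 and 138 CPM in WT 1, KO 1 and KO 2, and at 75.5, 104, 24.7 and 16.4 CPM in WT 4, WT 3, WT 2 and KO 3. Bst2, tetherin, was at 12.8, 11.3 and 12.3 CPM against 40.0, 16.5, 13.8 and 54.3 CPM. WT 4 reached the lowest S100-high library in 17 of the 32 genes, WT 3 in 14, KO 3 in 8 and WT 2 in 5, all below the shares over all genes given above.

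Genes of ferroptosis, the iron-dependent death by lipid peroxidation named in the series title, differed less, with a median of 0.42 over 32 of 34 members. Alox5, Nfe2l2, Nqo1 and Por were higher (12.5%, against 8.12% of all tested genes) and none was lower. Nqo1 was low in every library and barely apart, at 2.99 CPM in WT 1 against 2.98 CPM in WT 2. Alox5, the 5-lipoxygenase of leukotriene synthesis, was at 71.4, 30.7 and 25.4 CPM in WT 1, KO 1 and KO 2, and at 25.4, 18.7, 5.01 and 0.584 CPM in WT 4, WT 3, WT 2 and KO 3, so KO 2 and WT 4 had practically the same value. Nfe2l2 encodes NRF2, a regulator of antioxidant genes, and was at 421 to 745 CPM against 168 to 361 CPM. The ferritin light chain Ftl1 was apart but differed by 0.83, and Fth1 overlapped.

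Of the 12 largest differences among genes at a mean log2 CPM of at least 5, Ltf, Ngp, Lcn2 and Cybb are granule genes. Jdp2, an AP-1 repressor, was at 149, 132 and 85.5 CPM in WT 1, KO 1 and KO 2, and at 22.5, 36.0, 5.95 and 3.51 CPM in WT 4, WT 3, WT 2 and KO 3. Dusp1, a phosphatase that switches off MAP kinases, was at 4278, 7543 and 2948 CPM against 1036, 2188, 609.7 and 177 CPM. Both genes ran highest in WT 3 and lowest in KO 3 within the S100-low side. Saa3, an acute-phase protein, kept another order: 534, 359 and 244 CPM against 40.5, 59.8, 19.4 and 193 CPM, so that KO 3 lay close to KO 2 and the log2 difference inside the knockouts was 0.62 against 3.87 inside the wild types. Ifitm6, Arg2, Fcgr4, Pde4b and Inhba completed the 12, with differences of 2.59 to 2.63.

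Genes that were lower on the S100-high side were of other kinds. Cox7c (chr13:86044816-86046904, minus strand), a subunit of cytochrome c oxidase, was at 57.7, 112 and 53.0 CPM in WT 1, KO 1 and KO 2, and at 520.2, 435, 582 and 186 CPM in WT 4, WT 3, WT 2 and KO 3. The means were 74.3 ± 32.9 CPM (SD, n = 3) and 431 ± 174 CPM (SD, n = 4), and the log2 difference was -2.49. Hmga1, a chromatin protein of dividing cells, was at 52.0, 169 and 95.6 CPM against 416, 479, 493 and 243 CPM. For Cox7c and Hmga1 KO 3 was the S100-low library nearest to the other side. Mt2, a metallothionein, was at 421, 474 and 393 CPM against 1612, 875, 1111 and 2177 CPM, and there KO 3 was the highest.

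Usmg5, Amd2, Bola2, Mns1, Ndufa1, Dhx34, Lrrc17 and Tbx19 were also among the 12 largest, with differences of -1.70 to -1.53. Rps27, a ribosomal protein, was at 923, 787 and 318 CPM against 2578, 1085, 1667 and 2452 CPM in WT 4, WT 3, WT 2 and KO 3. Ribosomal protein genes, Cox7c, Hmga1 and Amd2 have close copies or processed pseudogenes, so their counts are uncertain where reads match more than 1 place.

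**Figure D4:**
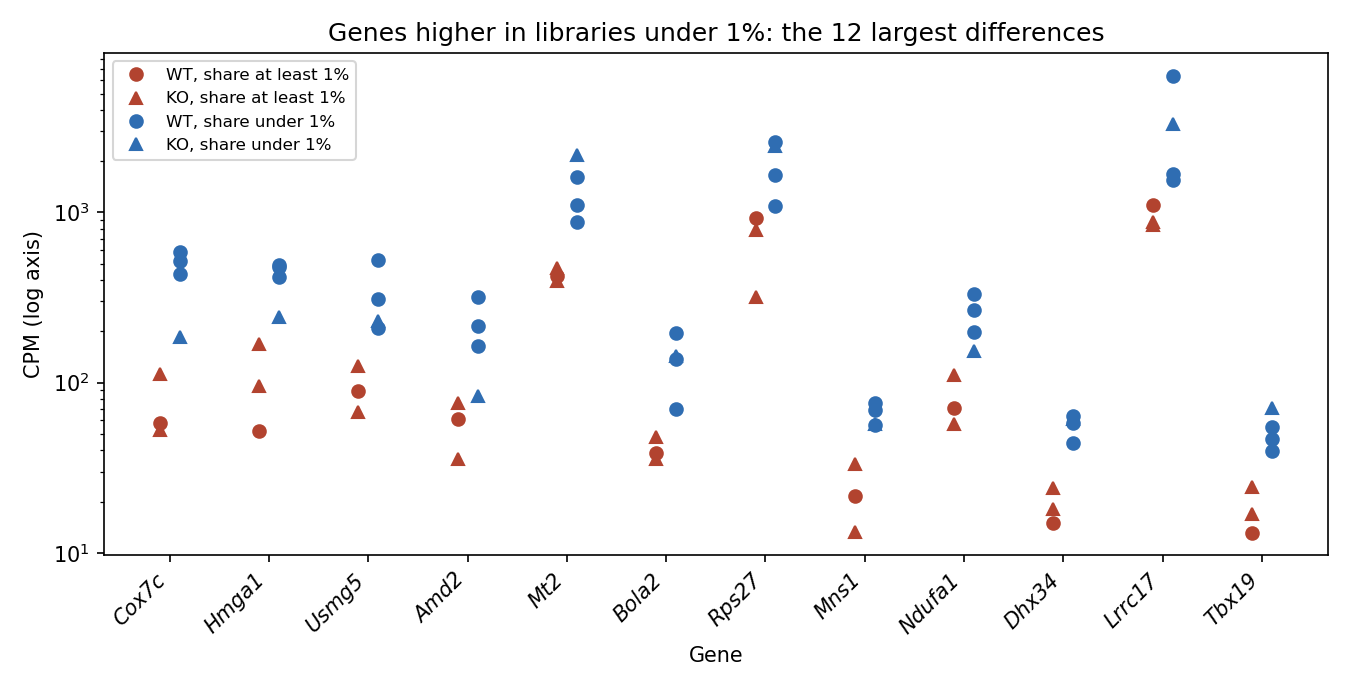
CPM on a log axis for the 12 genes with the largest differences toward the S100-low side, with 1 point per library, colour for the side and shape for the genotype. Cox7c runs from 53.0 to 112 CPM on the S100-high side and from 186 to 582 CPM on the other.

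Cytosolic ribosomal protein genes had a median difference of -0.70 over 82 of 84 members. Of these, 81 had a negative difference, 58 were apart and lower, and 15 passed the size rule. KO 3 was the highest library for 59 of the 82, against 2043 of all 12504 tested genes. With ribosomal protein genes, S100a8 and S100a9 left out of the library sizes, 938 genes were higher and 507 lower on the S100-high side. Genes of oxidative phosphorylation went the same way by less: the median was -0.55, 12 of 30 were apart and lower, and 2 (Cox6c and Ndufa1) passed the size rule. Cox7c, which differed by -2.49, is not in that list, so its counts do not cover every gene of the pathway. Over all tested genes 8.85% were apart and lower. Mitosis and replication genes had a median of -0.63, with 3 of 32 (Cdk1, Mcm6 and Ube2c) lower. Cdk1, the kinase that starts mitosis, was at 85.5, 129 and 116 CPM in WT 1, KO 1 and KO 2, and at 263, 171, 245 and 393 CPM in WT 4, WT 3, WT 2 and KO 3. Top2a, a topoisomerase of dividing cells, overlapped, because KO 2 at 1220 CPM was above every S100-low library. Genes counted as lower made up 18.3% of the ribosomal, 6.67% of the oxidative phosphorylation and 9.4% of the mitosis list, against 3.62% of all tested genes. Glycolysis and hypoxia genes had a median of 0.22, with 2 of 23 (Pfkfb3 and Slc16a3) higher. That is 8.70%, near the 8.12% of all tested genes.

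Transcripts of other leukocytes were present on both sides. T cell markers, 22 of 26 tested, summed to 0.120% to 0.208% of counts on the S100-high side and 0.226% to 0.339% on the other, with a median difference of -0.52. Cd4, the helper T cell coreceptor, was at 0, 1.94 and 3.98 CPM in WT 1, KO 1 and KO 2, and at 19.1, 16.3, 12.2 and 39.9 CPM in WT 4, WT 3, WT 2 and KO 3. Lck, the kinase of T cell receptor signalling, was at 60.1, 87.1 and 68.9 CPM against 168, 121, 155 and 177 CPM. Cd4 and Lck were the 2 T cell genes counted as lower (9.09%, against 3.62% of all tested genes). Cd3d overlapped (153 CPM in KO 2 against 140.0 CPM in WT 3), and Trac, the T cell receptor alpha constant region, was almost level at 65.1 to 71.7 CPM against 59.0 to 85.2 CPM.

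B cell markers, 13 of 15 tested, were set apart by WT 1 rather than by the side. They took 0.0126% of counts in WT 1 and 0.0349% to 0.0729% in the other 6 libraries, and WT 1 was the lowest library for 12 of the 13. Among all 12504 tested genes WT 1 was the lowest for 2475. Cd79a had no counts in WT 1, and Ms4a1 had none in WT 1 and WT 4. Cd79a was at 8.16 and 5.82 CPM in KO 1 and KO 2, and at 7.41 to 12.7 CPM on the S100-low side. None of the 13 passed the size rule with the sides apart.

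Most monocyte and macrophage markers were highest in KO 1. The 24 genes summed to 0.216% to 0.399% of counts on the S100-high side and 0.0705% to 0.177% on the other, and KO 1 was the highest library for 19 of them. Among all 12504 tested genes KO 1 was the highest for 1885. The complement gene C1qb was at 15.8, 161 and 66.5 CPM in WT 1, KO 1 and KO 2, and at 52.2, 46.5, 15.5 and 31.5 CPM in WT 4, WT 3, WT 2 and KO 3. WT 1, the library with the largest S100 share, thus had nearly the lowest C1qb, but it had the highest Csf1r (229 CPM), Cd14 (718 CPM) and Cd68 (120.4 CPM) of the 7 libraries. The 6 members counted as higher (25.0%, against 8.12% of all tested genes) were Cd14, Cd68, Csf1r, Ly6c2, Sirpa and Spp1. MHC class II and dendritic cell markers, 13 of 18 tested, were likewise highest in KO 1 for 10 genes. Batf3 and Itgax were higher on the S100-high side (15.4%, against 8.12% of all tested genes). Of 23 lysosomal and lipid handling genes 8 were higher (34.8%, against 8.12% of all tested genes), with a median of 0.97. Neutrophils also express Cd14, Sirpa and Lyz2 to some degree, and the part of monocytes in the neutrophil differences was not tested.

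Eosinophils and basophils are granulocytes as well. Siglecf, an eosinophil receptor, was at 11.4, 10.3 and 9.80 CPM in WT 1, KO 1 and KO 2, and at 4.50, 0.596, 0.626 and 0.779 CPM in WT 4, WT 3, WT 2 and KO 3. Ccr3, the eotaxin receptor, was at 2.76 to 5.98 CPM against 0.390 to 1.59 CPM, while Epx, the eosinophil peroxidase, had no counts in any library. These are low levels, near the limit set by depth. The basophil and mast cell genes Mcpt8, Fcer1a and Ms4a2 had no counts, and 2 of the 9 listed were tested. Kit was higher on the S100-high side at 7.39 to 14.6 CPM against 0 to 2.98 CPM, while the protease gene Cpa3 overlapped with a difference of -0.75, lowest in WT 1 at 1.79 CPM and highest in WT 2 at 24.7 CPM. Ncr1 of NK cells and Epcam of epithelium had no counts in any library.

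Red cell and stromal transcripts overlapped between the sides. Erythroid markers took 0.0621% to 0.0981% of counts on the S100-high side and 0.0245% to 0.203% on the other. Hbb-bs, a beta globin, was at 155, 122 and 54.2 CPM in WT 1, KO 1 and KO 2, and at 34.2, 403, 75.8 and 372 CPM in WT 4, WT 3, WT 2 and KO 3. Stromal, endothelial and epithelial markers took 0.0122% to 0.0233% against 0.0104% to 0.0357%. Of those tested, Vwf alone was higher (11.1%, against 8.12% of all tested genes), and of 2 tested platelet genes Gp1bb was higher (50.0%).

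**Figure D5:**
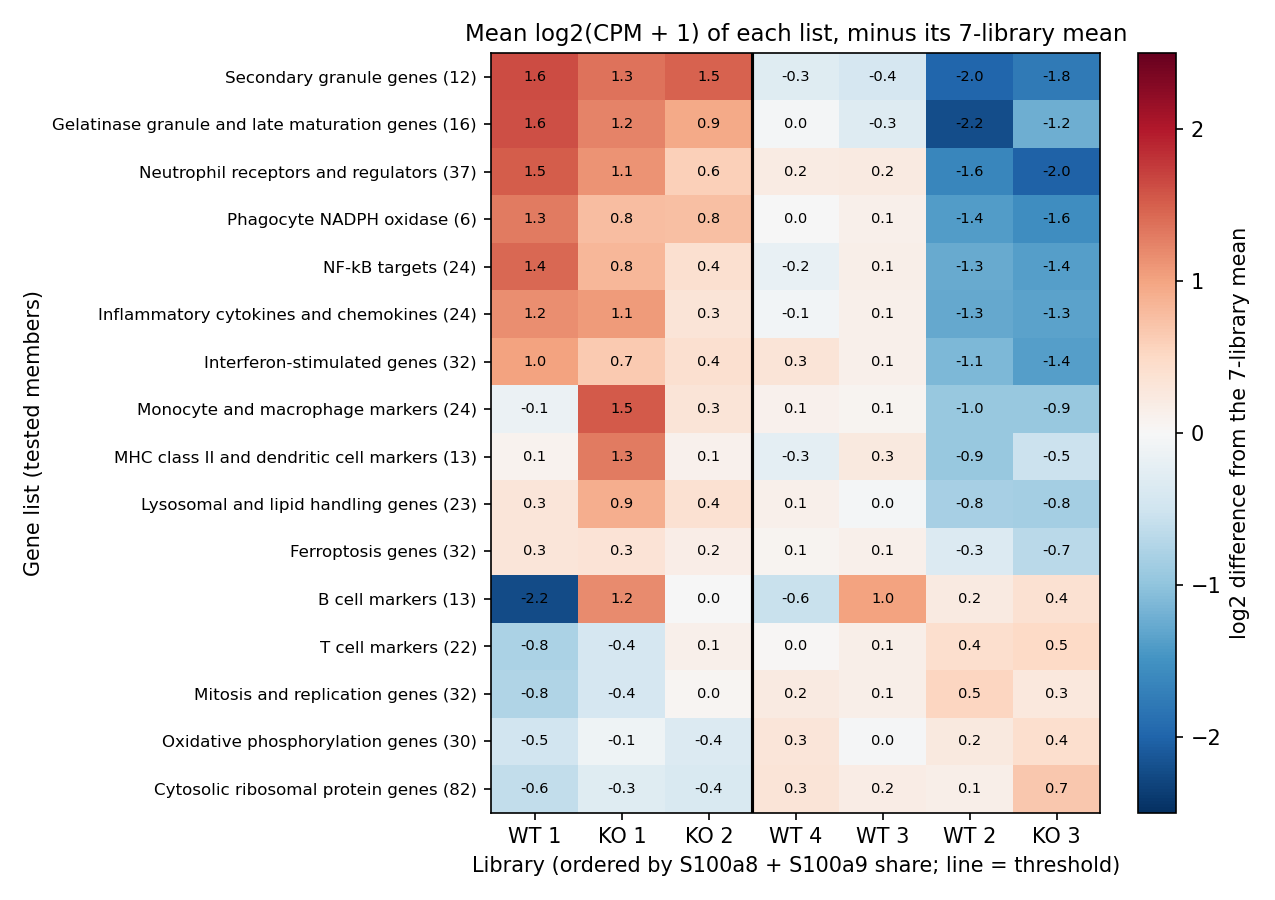
Mean log2(CPM + 1) of the tested members of 16 gene lists in each library, minus the list's mean over the 7 libraries (colour, with the value printed), libraries ordered by S100 share and a line at the threshold. WT 3 and WT 4 lie between the S100-high libraries and the pair WT 2 and KO 3 for secondary granule genes, gelatinase granule genes, receptors and NADPH oxidase, WT 1 is lowest for B cell markers and KO 1 highest for monocyte markers.

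A principal component analysis over all tested genes other than S100a8 and S100a9 put 41.2% of the variance on its first axis. The S100-high libraries lay at -79.2 (WT 1), -60.6 (KO 1) and -35.7 (KO 2), WT 3 at -4.31, WT 4 at 23.3, WT 2 at 65.9 and KO 3 at 90.7. No wide gap separates the sides on this axis. The closest pair of libraries was WT 2 and KO 3, with a root mean square log2 difference of 0.978, and the next was WT 3 and KO 2 at 1.02, which lie on different sides and have different genotypes. WT 1 and KO 3 were the farthest apart, at 1.65.

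Between genotypes, no gene of 12506 passed an adjusted p of 0.05 (0%) in edgeR's quasi-likelihood test with Benjamini-Hochberg adjustment, and the smallest adjusted p was 0.999948. Before adjustment, 154 genes had p under 0.05. With the side as a term in the model there were again no calls (0%), the smallest adjusted p was 0.169, and 627 genes had an unadjusted p under 0.05. With the description stem as a term, which separates KO 2 and KO 3 from the rest as Xist and Ddx3y do, edgeR made no calls either, and 439 genes had an unadjusted p under 0.05. A share of 0.05 of all tested genes would have such a p without any difference, and none of these counts was clearly above that. The biological coefficient of variation was 0.563 without and 0.47 with the side. The side was made from these libraries' own counts, and neutrophil genes such as Cxcr2 and Ltf vary with it. Values from the model with the side are therefore descriptions. Cxcr2 had a knockout minus wild type log2 difference of -0.56 ± 0.94 (SE) without the side and -2.13 ± 0.92 with it, with edgeR adjusted p of 0.999948 and 0.887. Ltf had 1.08 ± 1.33 without and -0.92 ± 0.46 with it, and the same adjusted p-values. For Ltf the sign therefore depended on the term, and neither value was called. DESeq2 called 1 gene, Impdh2-ps, named after its value was seen: 30, 67, 124 and 66 counts in WT 1 to WT 4 and 0, 0 and 7 in KO 1 to KO 3, a log2 difference of -4.94 ± 0.97 with a DESeq2 adjusted p of 0.00429. It is a pseudogene with a near-identical parent gene, so its counts are uncertain, and DESeq2 gave 213 genes at an unadjusted p under 0.05.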

How the data were processed

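RNA of 7 mouse granulocyte libraries was measured as 3′ tags. The authors deposited 1 table of whole-number counts per gene. RSEM 1.2.3, DESeq2 and mm10 were named, per the submitters' processing notes, with no roles. RSEM estimates counts, so the deposited counts may be rounded. The annotation release, strand setting and treatment of reads matching several genes are not given in the sources used here.

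Symbols were found for 51596 of its 51789 genes. GENCODE M21 (GRCm38, the build of mm10) gave coordinates and RefSeq the promoters. edgeR 4.0.16 in R 4.3.3 kept 12506 genes (filterByExpr by genotype; 99.62% of counts). CPM used TMM library sizes and log2 CPM a prior count of 2. Genotype was tested by the robust quasi-likelihood F test with Benjamini-Hochberg adjustment. Scripts were tested on simulated data.

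The members, the 27 gene lists and the rules were chosen with earlier results of these data known. Genes named were S100a8, S100a9 and Alox15, the 12 largest side differences per direction at a mean log2 CPM of at least 5 with sides apart (protein-coding, no clone names), the 4 most abundant members per list and preset cell type markers. Other list members named with values were chosen after their values were seen, as examples.

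Alternatives were other scaling, filters, prior counts and size rules, DESeq2 1.42.0, added model terms, and leaving out libraries. Leaving out WT 3 and WT 4 together was added after seeing the data.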

Additional observations from a re-analysis of the deposited data

Results flagged for a closer look

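Within the 4 wild-type libraries, WT 1 stood far from the other 3 for 2 genes. Cox7c was at 57.67 CPM in WT 1 and at 435 to 582 CPM in WT 2, WT 3 and WT 4, with a gap of 0.873 of the group's range. Hmga1 was at 52.0 CPM in WT 1 and at 416 to 493 CPM in the others, with a gap of 0.923 of the range. Both gaps exceed the 95% critical value of Dixon's test for 4 samples. Chance gives about 1 in 20 groups such a gap where genes are not chosen by their values, and 2 of 54 groups had one here. That rate does not apply to these groups, since nearly all were of genes chosen by their difference between the sides. WT 1 is the only S100-high wild type, so its gap restates that choice and is given as a description.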

How the results depend on the processing

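For the 1015 genes higher on the S100-high side, leaving out 1 library gave 896 to 1631, leaving out both WT 3 and WT 4 gave 2222, leaving out both WT 2 and KO 3 gave 737, no minimum difference gave 1557 and a minimum of 2 gave 379. For the 453 lower genes, leaving out 1 library gave 507 to 944, without both WT 3 and WT 4 it was 1021, without both WT 2 and KO 3 it was 729 (so that the directions were nearly even), no minimum gave 1106 and a minimum of 2 gave 91. Of the 1468 genes in both directions, 1410 were shared without WT 3 and WT 4 and 946 without WT 2 and KO 3. Fewer libraries make non-overlap easier by construction. Without WT 4 the median of all genes was -0.113. The other scalings, filters and prior count kept both counts within 1.5 times. Of 143 named genes tested, the 58 that met the size rule kept their sign under 12 alternatives each, and 27 of the other 85 did not.

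The number of S100-high libraries was 5 with the share taken outside ribosomal protein genes and 5 with a threshold of 0.5%. The genotype difference in log2 share ran from -0.92 to 0.85 when 1 library was left out, was 0.24 without WT 1 and 0.85 without KO 3, and as a plain percent was 0.0183. The cause of these changes was not tested.

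DESeq2 called 1 gene lower in knockout, where edgeR called 0. Replicate numbers did not pair the libraries: same-numbered deviations correlated at 0.349, -0.225 and -0.184. With the replicate block edgeR again gave 0 calls, and 80 genes at an unadjusted p under 0.05. At this depth a gene without counts in a single library may still stand at up to 0.929 CPM.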
